A study of Mus musculus with 2 samples.

Results

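Metallothioneins and the genes of the Nrf2 oxidative stress response were followed in primary mouse pituitary cells kept in one of 2 preserving solutions. The set held 9 genes chosen by symbol, of 47069 genes in the count table. It comprised Mt1, Mt2 and Mt3, which encode metallothioneins, Hmox1, Srxn1, Txnrd1, Nqo1 and Gclm, which encode enzymes induced by Nrf2, and Nfe2l2, which encodes Nrf2 itself. All 9 passed the filter on low values, a mean over both libraries of 1 CPM or more, and the 16504 genes that passed it served as the reference. CPM stands for counts per 1000000 counts of the library's column total.

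Both samples were acutely dissociated cells of whole pituitaries from female C57BL/6 mice aged 10 to 12 weeks and taken at random stages of the cycle. Collagenase and then pancreatine were used to free the cells. The study describes samples of 5 glands and roughly 500000 to 700000 cells for its plated cells. It does not repeat a number of glands or cells for these 2 samples. One sample was stored in RNA-Best, the stabilization buffer introduced by the study, and the other in RNAlater, a commercial RNA preservative used as the reference. With 1 library per group, the difference has no replicate check and no test between the solutions was possible. Every interval given below is a 95% interval that covers counting error alone. Differences between the glands used or between 2 library preparations cannot be told apart from differences between the solutions. A lower level in bulk RNA can also come from fewer cells of a type or from less RNA per cell, which cannot be told apart.

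Metallothioneins are small, cysteine-rich proteins that bind zinc and copper and take up reactive oxygen species. Mt1 and Mt2 are expressed in most tissues and are induced by metals through the zinc-sensing factor Mtf1, which binds metal response elements (MREs), and also by glucocorticoids and oxidants. Mt3 is best known from the brain. Nrf2 is held in the cytoplasm and passed to degradation by Keap1; when electrophiles or oxidants modify Keap1, Nrf2 enters the nucleus, pairs with a small Maf protein and switches on genes that carry an antioxidant response element (ARE). The short motif bound by AP-1, the Fos and Jun dimer, resembles the ARE.

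The sequences upstream of the 3 metallothionein genes and of Srxn1, the most abundant Nrf2 target of the set by CPM, are shown. Whether any element in these windows bears on the ratio of its gene was not tested. Each sequence is the 250 bases before the RefSeq start site on GRCm38.p6, printed 5′ to 3′ on the strand of the gene. Capitals mark the MRE core in the metallothionein genes and the AP-1 motif in Srxn1.
Mt1 (chr8:94178839-94179088, plus strand): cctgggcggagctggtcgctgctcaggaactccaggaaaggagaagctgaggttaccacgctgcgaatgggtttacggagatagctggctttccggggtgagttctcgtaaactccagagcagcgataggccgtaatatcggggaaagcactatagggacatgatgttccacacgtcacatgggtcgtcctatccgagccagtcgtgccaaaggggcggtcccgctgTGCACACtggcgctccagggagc
Mt2 (chr8:94172368-94172617, plus strand): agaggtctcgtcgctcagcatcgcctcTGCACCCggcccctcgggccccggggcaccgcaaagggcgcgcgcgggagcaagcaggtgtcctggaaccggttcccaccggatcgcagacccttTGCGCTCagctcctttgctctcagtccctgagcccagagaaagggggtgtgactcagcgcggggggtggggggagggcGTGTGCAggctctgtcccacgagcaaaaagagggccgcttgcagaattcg
Mt3 (chr8:94152357-94152606, plus strand): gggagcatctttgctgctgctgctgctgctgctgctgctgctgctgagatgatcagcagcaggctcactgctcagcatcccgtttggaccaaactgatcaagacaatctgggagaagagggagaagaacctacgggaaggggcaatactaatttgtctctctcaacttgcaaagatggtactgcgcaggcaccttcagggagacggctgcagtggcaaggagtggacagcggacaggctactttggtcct
Srxn1 (chr2:152105274-152105523, plus strand): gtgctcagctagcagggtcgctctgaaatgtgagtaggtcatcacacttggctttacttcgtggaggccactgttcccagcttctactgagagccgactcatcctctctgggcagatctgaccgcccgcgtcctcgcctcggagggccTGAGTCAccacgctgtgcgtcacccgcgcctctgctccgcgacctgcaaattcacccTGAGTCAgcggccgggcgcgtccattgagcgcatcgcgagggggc

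The MRE core was searched as TGCACNC or TGCGCNC, the ARE core as TGACNNNGC and the AP-1 motif as TGACTCA, each on both strands. TGACTCA followed by GC on its own strand also counts as an ARE core. RefSeq windows were found for 8 of the 9 genes, in 10 windows since Txnrd1 has 3 starts; Hmox1 was not matched. The Mt2 window held 3 MRE cores, which began 223, 128 and 50 bases upstream of the start. The Mt1 window held 1, at 23 bases, and the Mt3 window none. Mt1 has 3 annotated transcripts, and only 1 RefSeq start of it was used. Elements beside any other start were not counted, so these numbers do not rank the promoters of the genes. Of all 32851 windows, 21.4% held at least 1 MRE core and 1.26% at least 3.

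ARE cores, present in 10.2% of all windows, were found 134 bases upstream in Gclm, 240 bases upstream in Nfe2l2 and 92 bases upstream in 1 of the 3 Txnrd1 windows. Mt2 carried an ARE core at 79 bases that was also an AP-1 motif. Srxn1 held 2 AP-1 motifs, at 102 and 45 bases, beside an AP-1 share of 4.46% over all windows, and no match to TGACNNNGC. Its motif at 45 bases is printed as TGAGTCA followed by GC, which this pattern leaves out. Looser forms of the ARE were not searched, so Srxn1 is not shown to lack an ARE. MRE cores also occurred in Srxn1, with 1, and in Gclm, with 2, of which the one at 138 bases overlapped its ARE core. Nqo1 held none of the 3 motifs. These matches are descriptions of letters in short windows.

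The RNA-Best library held 53915047 counts and the RNAlater library 44917492, so that 3 counts correspond to 0.0556 and 0.0668 CPM. The median gene had a log2 ratio of RNA-Best over RNAlater of -0.19, with quartiles of -0.51 and 0.11. At least 2-fold differences were found in 6.75% of the genes, of which 69 were higher and 1045 lower in RNA-Best. With TMM factors, a scaling that trims genes with extreme ratios or levels, these counts were 182 and 600. Because of this offset, the ratio of each gene was read both as it stands and against the median of all genes.

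Mt1 and Mt2 were abundant in both samples, and both were lower in RNA-Best. Mt1 (ENSMUSG00000031765.7; chr8:94179082-94180327, plus strand, GRCm38) was at 360 CPM (355 to 365) in the RNA-Best and 461 CPM (454 to 467) in the RNAlater library, from 19412 and 20687 counts. The log2 ratio was -0.36 (-0.38 to -0.33), a level 21.8% lower in RNA-Best. Mt2 (ENSMUSG00000031762.6; chr8:94172664-94173568, plus strand) was at 309 CPM (304 to 313) in the RNA-Best and 413 CPM (407 to 419) in the RNAlater library, with a log2 ratio of -0.42 (-0.45 to -0.39). For both genes the 2 counting intervals were far apart. Against the median of all genes, the log2 ratios of Mt1 and Mt2 were smaller in size, -0.17 and -0.23.

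Mt3 (ENSMUSG00000031760.8; chr8:94152607-94154146, plus strand) went the other way. It was at 19.6 CPM (18.4 to 20.8) in the RNA-Best and 16.5 CPM (15.3 to 17.7) in the RNAlater library, from 1056 and 739 counts. Its level was thus 19.0% higher in RNA-Best, with a log2 ratio of 0.25 (0.11 to 0.39). The direction of Mt3 was the same under each of the 3 other scalings, but after removal of the trend with transcript length its log2 ratio was -0.07.

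The difference within the metallothionein family did not depend on how the libraries were scaled. Of the counts of the 3 genes, Mt3 made up 2.85% (2.68 to 3.02) in RNA-Best and 1.85% (1.72 to 1.99) in RNAlater. Mt1 counts were 18.4 times those of Mt3 (17.3 to 19.6) in RNA-Best and 28.0 times (26.0 to 30.2) in RNAlater. The ratio of Mt1 to Mt2 moved far less, from 1.12 (1.09 to 1.14) in RNAlater to 1.17 (1.14 to 1.19) in RNA-Best. Together the 3 genes made up 688 CPM in the RNA-Best and 890 CPM in the RNAlater library, for a log2 ratio of -0.37 (-0.39 to -0.35). The sum follows Mt1 and Mt2, which made up most of it.

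The 3 genes lie in a row on chromosome 8, with Mt4, the form of stratified epithelia, before Mt3. Gaps of 13575, 18517 and 5513 bases separate Mt4, Mt3, Mt2 and Mt1. Mt4 had 0 counts in both libraries, which allows a level of up to 0.0556 CPM in the RNA-Best and 0.0668 CPM in the RNAlater library. The longest run of identical bases between annotated transcripts was 20 for Mt1 and Mt2, 27 for Mt1 and Mt3 and 20 for Mt2 and Mt3, shorter than the reads. Mt1 and Mt3 had whole counts in both libraries, whereas the RNAlater count of Mt2 was 18537.8.

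**Figure D1:**
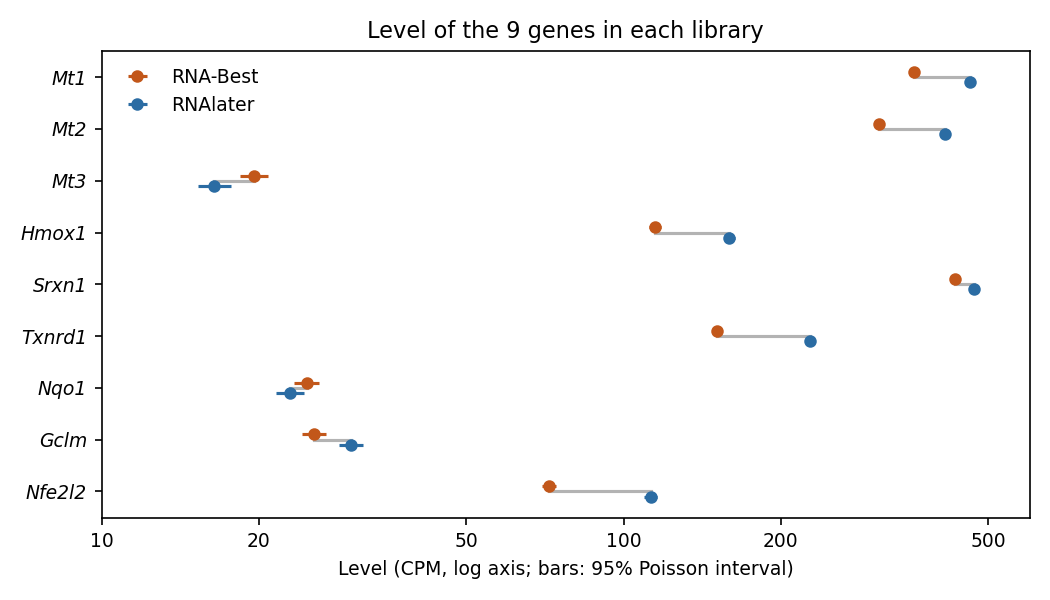
Level of each of the 9 genes (CPM, log axis) in the RNA-Best and the RNAlater library, 1 library each, with 95% Poisson intervals as bars. Mt1, Mt2 and Srxn1 sit at 309 CPM or above in both libraries, and Mt3, Nqo1 and Gclm at 30.1 CPM or below; only for Mt3 and Nqo1 is the RNA-Best point to the right.

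Among the enzymes induced by Nrf2, Txnrd1 and Hmox1 had the lowest ratios of RNA-Best over RNAlater and Nqo1 the highest. Hmox1 encodes heme oxygenase 1, which breaks heme down to biliverdin, iron and carbon monoxide (ENSMUSG00000005413.7; chr8:75093621-75100589, plus strand). It was at 115 CPM (112 to 118) in the RNA-Best and 159 CPM (156 to 163) in the RNAlater library. The level was 27.9% lower in RNA-Best, with a log2 ratio of -0.47 (-0.52 to -0.42) and of -0.28 against the median of all genes.

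Srxn1 and Txnrd1 serve the thiol systems that repair oxidized peroxiredoxins and thioredoxin. Srxn1, sulfiredoxin (ENSMUSG00000032802.8; chr2:152105516-152111376, plus strand), had the highest CPM of the 9 genes, 431 (425 to 436) in RNA-Best and 469 (463 to 475) in RNAlater. Its log2 ratio of -0.12 (-0.15 to -0.10) turned to 0.05 with TMM factors, 0.06 with DESeq2 size factors and 0.0049 with prolactin and growth hormone left out of the totals, so its direction depended on the scaling. Txnrd1, cytosolic thioredoxin reductase (ENSMUSG00000020250.9; chr10:82833951-82897712, plus strand), was at 151 CPM (147 to 154) in the RNA-Best and 227 CPM (223 to 232) in the RNAlater library. That is 33.7% lower in RNA-Best, with a log2 ratio of -0.59 (-0.63 to -0.55) and of -0.40 against the median of all genes.

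Nqo1 and Gclm were the less abundant enzymes. Nqo1, a quinone reductase (ENSMUSG00000003849.8; chr8:107388225-107403206, minus strand), was at 24.7 CPM (23.4 to 26.1) in the RNA-Best and 23.0 CPM (21.6 to 24.4) in the RNAlater library. The interval of its log2 ratio on column totals, 0.11 (-0.01 to 0.22), included 0, but it lay wholly above 0 under the 3 other scalings, at 0.28 (0.16 to 0.40) with TMM factors, 0.29 (0.17 to 0.41) with DESeq2 size factors and 0.23 (0.12 to 0.35) with prolactin and growth hormone left out of the totals. Gclm, the modifier subunit of the ligase that makes the first intermediate of glutathione (ENSMUSG00000028124.15; chr3:122245557-122270732, plus strand), was at 25.5 CPM (24.2 to 26.9) in the RNA-Best and 30.1 CPM (28.5 to 31.7) in the RNAlater library. Its log2 ratio was -0.24 (-0.35 to -0.13) and lay at -0.05 against the median of all genes. With TMM factors it was -0.065, with an interval of -0.17 to 0.044 that included 0. Gm17494, transcribed from the opposite strand across Gclm, had 127 and 96.4 counts, 9.22% and 7.13% of those of Gclm; whether strand was used in counting is not given in the sources used here, so these reads may not be separate.

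As a share of the counts of these 5 enzymes, which no scaling can change, Srxn1 made up 57.7% (57.2 to 58.2) in RNA-Best and 51.6% (51.1 to 52.1) in RNAlater. Txnrd1 made up 20.2% (19.8 to 20.6) and 25.0% (24.6 to 25.4). Thus Srxn1 counts were 2.86 times those of Txnrd1 in RNA-Best and 2.06 times in RNAlater. Hmox1 counts were 4.65 times those of Nqo1 in RNA-Best and 6.94 times in RNAlater, with intervals of 4.38 to 4.94 and 6.50 to 7.42. The share of Gclm, 3.42% in RNA-Best and 3.31% in RNAlater, had overlapping intervals. The 5 enzymes together were at 747 CPM in the RNA-Best and 909 CPM in the RNAlater library, for a log2 ratio of -0.28 (-0.30 to -0.26).

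Nfe2l2, the regulator, had the lowest ratio of the 9 genes. Nfe2l2 (ENSMUSG00000015839.6; chr2:75675513-75704641, minus strand) was at 71.9 CPM (69.6 to 74.2) in the RNA-Best and 113 CPM (110 to 116) in the RNAlater library, from 3876 and 5061 counts. The level was 36.2% lower in RNA-Best, with a log2 ratio of -0.65 (-0.71 to -0.59) and of -0.46 against the median of all genes. For 1 Nfe2l2 count there were 5.99 Srxn1 counts (5.79 to 6.20) in RNA-Best and 4.16 (4.04 to 4.29) in RNAlater. Nrf2 is governed largely by its protein turnover, which was not measured.

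Over the 9 genes, none differed by 2-fold or more, beside 0.418% of all genes that were higher in RNA-Best by that factor and 6.33% that were lower. The counting interval of the ratio lay wholly below 0 for 7 of the 9, beside 51.2% of all genes. It lay wholly above 0 for 1, Mt3, beside 20.2% of all genes. The 9 genes were at 16.5 CPM or above in each library, whereas the reference reached down to a mean of 1 CPM. Counting intervals are wider at low counts, so these shares are not matched for level. Both counts of the set depended on the scaling. With TMM factors 5 lay wholly below 0 (36.8% of all genes) and 3 wholly above (33.1%), with DESeq2 size factors likewise 5 (35.8%) and 3 (34.1%), and with prolactin and growth hormone left out of the totals 6 (40.3%) and 2 (29.1%). Mt1, Mt2, Hmox1, Txnrd1 and Nfe2l2 were wholly below 0 and Mt3 wholly above under all 4 scalings, whereas Srxn1, Nqo1 and Gclm changed their call. The median log2 ratio of the 9 was -0.36, beside -0.19 for all genes, and the values ranged from -0.65 to 0.25. Against the median of all genes, 3 lay above (Mt3, Nqo1 and Srxn1) and 6 below. In sum, the 9 genes accounted for 1507 CPM in the RNA-Best and 1911 CPM in the RNAlater library.

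Levels of different genes were compared as CPM per kb of the longest annotated transcript. In RNA-Best the order from the top was Mt2 at 604, Mt1 at 332, Srxn1 at 153, Hmox1 at 73.3, Txnrd1 at 41.6, Mt3 at 36.5, Nfe2l2 at 29.0, Nqo1 at 15.9 and Gclm at 4.56 CPM per kb. In RNAlater the values were Mt2 at 808, Mt1 at 424, Srxn1 at 167, Hmox1 at 102, Txnrd1 at 62.7, Nfe2l2 at 45.5, Mt3 at 30.7, Nqo1 at 14.8 and Gclm at 5.38 CPM per kb. The order thus differed between the samples in 1 place, where Mt3 and Nfe2l2 exchanged ranks, and no neighbours in either order had overlapping counting intervals. Mt2 stood at the 99.6th percentile of the reference genes in RNA-Best and the 99.8th in RNAlater, and Gclm at the 46.6th and 45.7th. With the median in place of the longest transcript length, Srxn1 came first, at 966 CPM per kb in RNA-Best and 1051 in RNAlater, since its shorter annotated transcripts set that length, and Gclm came before Nqo1. On that length Gclm was at 29.1 CPM per kb in RNA-Best and 34.3 in RNAlater, so its percentile depends on the length chosen. Mt2 was then at 686 and Mt1 at 569 CPM per kb in RNA-Best.

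**Figure D2:**
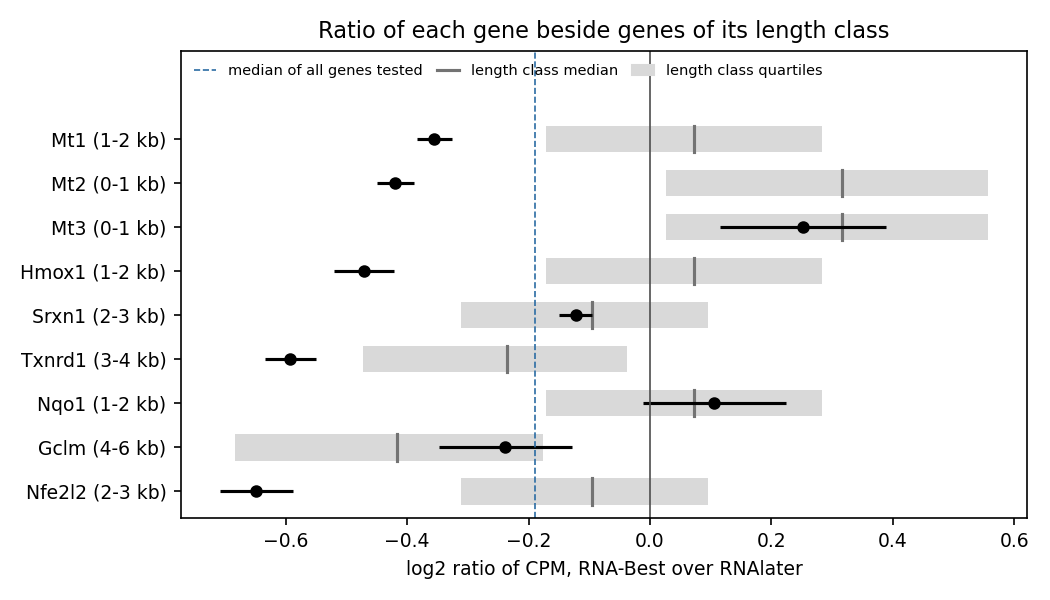
log2 ratio of CPM, RNA-Best over RNAlater, of the 9 genes with 95% counting intervals, beside the median and quartiles of all genes of the same transcript length class (grey) and the median of all genes (dashed, -0.19). Mt1, Mt2, Hmox1, Txnrd1 and Nfe2l2 lie left of the lower quartile of their classes, and Mt3, Srxn1, Nqo1 and Gclm within the quartiles.

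Transcript length moved with the ratio across the transcriptome. The median log2 ratio was 0.32 in the 2089 genes with a longest transcript under 1 kb and -0.95 in the 373 genes over 10 kb, and it was lower in each longer class between. Each gene of the set was therefore also set beside genes of like length. Mt2, at 511 bases among short transcripts with a high median, lay at -0.74 relative to the median of its class on the log2 scale, and Mt3, at 536 bases, lay at -0.07. By longest transcript, the ratio of Mt3 was thus close to the median of other short transcripts. By median transcript length, the ratio of Mt3 lay 0.26 above its class median. Txnrd1 lay at -0.36 and Nfe2l2 at -0.55 beside their classes, whereas Gclm, with a transcript of 5589 bases, lay at 0.18.

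Relative to their classes, Mt1 was at -0.43, Hmox1 at -0.54, Srxn1 at -0.03 and Nqo1 at 0.03. Below the lower quartile of their own class were 5 of the 9, Mt1, Mt2, Hmox1, Txnrd1 and Nfe2l2, beside 25.0% of all genes by construction. Below the class median were 7 of the 9, and the median distance of the 9 was -0.36. When classes were formed on the median transcript length, the same 5 genes lay below the lower quartile, while Mt3 moved above its class median, at 0.26, and Gclm below, at -0.23. Of the 9, 6 lay below under both lengths. Whether length accounts for the ratio of any single gene was not tested.

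**Figure D3:**
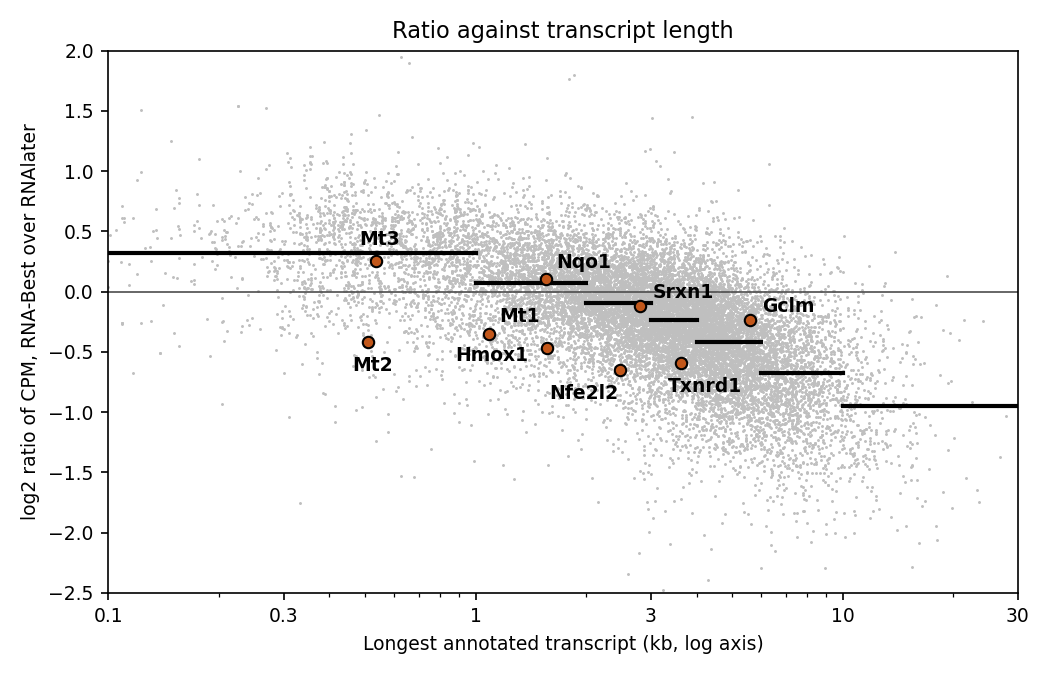
log2 ratio of CPM, RNA-Best over RNAlater, against the longest annotated transcript (kb, log axis) for 16403 genes (grey; another 40 lie beyond the axes), with the median of each length class as a black line and the 9 genes in orange. The class medians step down from 0.32 to -0.95, and 7 of the 9 genes lie below the line of their class, Mt3 and Srxn1 by 0.07 or less and Mt1, Mt2, Hmox1, Nfe2l2 and Txnrd1 by more.

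The pathways around the set did not share 1 direction. Of 20 other Nrf2 target genes, 10 were higher and 10 lower in RNA-Best, none by 2-fold, and 12 lay above the median of all genes. Their median log2 ratio was -0.01, and 0.03 relative to genes of like length. The range ran from -0.87 for Abcc1, a glutathione conjugate exporter, to 0.52 for Prdx1, a peroxiredoxin. Gclc, the catalytic partner of Gclm, was at 55.2 CPM in the RNA-Best and 78.4 CPM in the RNAlater library, for a log2 ratio of -0.51; it falls outside the rule for named genes and was named for its role after its value was seen.

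Of 12 partners and regulators of Nrf2, 10 lay below the median of all genes and 11 were lower in RNA-Best (10 under TMM factors), with a median of -0.51, or -0.14 relative to genes of like length. Bach2, a repressor that competes for the same elements, was at 2.01 CPM in the RNA-Best and 5.17 CPM in the RNAlater library, for a log2 ratio of -1.36 (-1.71 to -1.03), and was the 1 gene of this group apart by 2-fold. Its longest transcript has 8882 bases, and 23.6% of genes of 6 to 10 kb were at least 2-fold lower. Relative to that class Bach2 lay at -0.69. The highest was Rbx1, a subunit of the Keap1 ubiquitin ligase, at 0.18. Keap1 itself, also named for its role after its value was seen, was at 46.7 CPM in the RNA-Best and 47.8 CPM in the RNAlater library, with a log2 ratio of -0.03 (-0.12 to 0.05) on column totals and of 0.14 (0.057 to 0.22) with TMM factors, so that its direction depended on the scaling.

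General antioxidant enzymes lay on the other side. Of 27 such genes, 21 lay above the median of all genes and 17 were higher in RNA-Best (21 under TMM factors), with a median of 0.25, or 0.33 relative to genes of like length. Their range ran from -0.79 for Sod3, the extracellular superoxide dismutase, to 0.71 for the peroxiredoxin Prdx5, which was at 199 CPM in the RNA-Best and 122 CPM in the RNAlater library. None was apart by 2-fold.

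Genes of zinc and copper handling lay near the middle of all genes, with 12 of 23 above that median and a median log2 ratio of -0.18. Relative to genes of like length their median was 0.11, and 7 of 23 lay below their class median. They included 1 gene apart by 2-fold. That gene, the copper transporter Atp7a, was at 7.22 CPM in the RNA-Best and 17.3 CPM in the RNAlater library, for a log2 ratio of -1.26 and of -0.85 relative to genes of like length. The highest was Commd1 at 0.40. The zinc sensor Mtf1, named for its role after its value was seen, was at 14.9 and 19.6 CPM, with a log2 ratio of -0.40 and of 0.27 relative to genes of like length. Of 15 genes of heme and iron handling, 10 lay above the median of all genes. Relative to genes of like length their median was 0.15, and 4 lay below their class median. Their log2 ratios ran from -0.51 for the iron transporter Slc11a2 to 0.40 for Alad, an enzyme of heme synthesis. Hmox1, at -0.47, lay near the lower end of that range. Relative to genes of like length, Hmox1 was at -0.54, lower than any of the 15, of which the lowest was at -0.16.

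**Figure D4:**
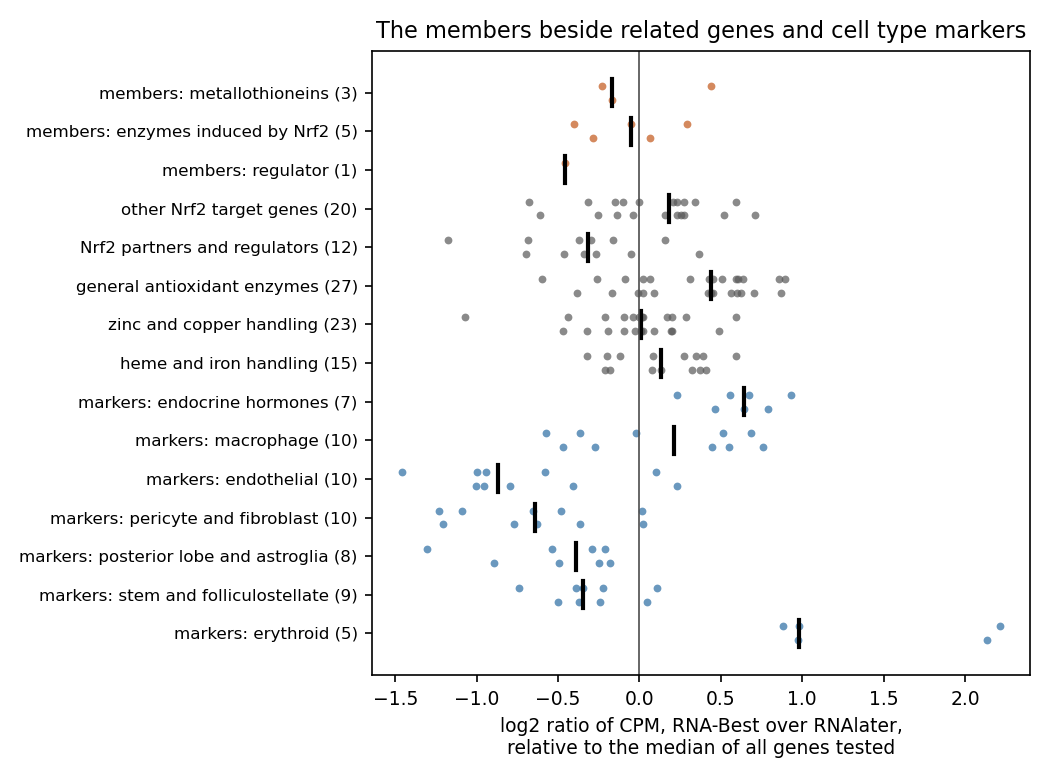
log2 ratio of CPM, RNA-Best over RNAlater, relative to the median of all genes tested (line at 0), for each gene (points) of the set in orange, of related pathways in grey and of cell type markers in blue, with the number of genes in brackets and the group median as a black bar. The median of the Nrf2 partners and regulators lies at -0.32, that of the general antioxidant enzymes at 0.44, and those of the endothelial and erythroid markers at -0.87 and 0.98.

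Markers of the cell types in the samples also differed between the libraries. All 7 pituitary hormone genes were higher in RNA-Best, at 307051 CPM in sum against 239085 CPM in RNAlater, so that both libraries carried the markers of the labelled tissue. Endothelial markers were lower for 9 of 10 genes, with sums of 434 and 829 CPM, and pericyte and fibroblast markers for 10 of 10, with 587 and 787 CPM. Stem and folliculostellate markers were lower for 9 of 9, with 949 and 1321 CPM, and posterior lobe and astroglia markers for 8 of 8, with 212 and 332 CPM. Under TMM factors these 4 counts were 8, 9, 7 and 8. Lower ratios were common among all genes, with a median log2 ratio of -0.19 and an upper quartile of 0.11. Relative to genes of like length, 10, 9, 9 and 6 genes of these 4 lists lay below their class median. So did 2 of the 7 hormone genes.

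Macrophage markers were split, with 5 of 10 lower and sums of 217 and 200 CPM. Erythroid markers were higher for 5 of the 5 above 1 CPM, with 3201 CPM in the RNA-Best and 1130 CPM in the RNAlater library, led by the globin genes Hbb-bs and Hbb-bt. No marker was at 0 in either library. The endothelial, pericyte and fibroblast, stem and folliculostellate, and posterior lobe and astroglia markers thus lay in the same direction as the 7 genes of the set that were lower in RNA-Best on column totals, and the part of any of these groups in the ratios of the set or of the pathways above was not tested.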

How the data were processed

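Poly(A) RNA of 2 samples, grouped by the stabilizer in the labels, was sequenced as single reads. The authors deposited estimated counts per gene, not normalized, made with STAR 2.5.1b and featureCounts 1.5.0-p1 on mm10 per the submitters' processing notes. The option that gave fractional counts (35.4% and 34.9% of values above 0) is not given in the sources used here. CPM was taken on column totals, with no pseudocount. Ratios carry exact conditional binomial intervals on rounded counts, levels Poisson intervals and shares exact binomial (Clopper-Pearson) intervals, all 95%. Symbols (98.8% of IDs) and lengths came from GENCODE M21 (GRCm38), and promoters from RefSeq. Python 3.11.15, scipy 1.17.1, edgeR 4.0.16 and DESeq2 1.42.0 (scaling factors alone) were used. Other scalings, pseudocounts, filters and a length correction were tried. Named genes were the 9 members and, in each wider pathway list, the highest, the lowest and any apart by 2-fold; exceptions are stated. Members and lists were chosen with earlier results of these data known. The ratio calculation was checked on simulated data. Genes annotated across Mt2 (Gm45774) and Txnrd1 (Gm38560, Gm47073 and Eid3) had no counts of their own here. Whether their reads were counted in Mt2 or Txnrd1 was not tested.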

Additional observations from a re-analysis of the deposited data

How the results depend on the processing

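The number of genes above the median of all genes, apart by 2-fold and below genes of like length was 3, 0 and 7 under each alternative run for it. For the first count this was fixed in advance under the other scalings, which move every gene and the median alike. The genes behind a constant count could change. With the length trend removed, Srxn1, Nqo1 and Gclm lay above the median of all genes and Mt3 below it. Of the 9 genes, 6 were then below 0 and 3 above. With classes on the median transcript length, Gclm took the place of Mt3 among the 7. Sizes depended on the scaling, which moved the median of all genes by 0.17 (TMM), 0.18 (DESeq2 size factors) and 0.13 (without Prl and Gh in the totals). The median log2 ratio of the 9 genes, -0.36, was -0.18 with TMM, -0.17 with DESeq2 size factors, -0.23 without Prl and Gh and -0.32 after removal of the length trend. In the same order, the summed metallothioneins were at -0.20, -0.19, -0.24 and -0.61, and the summed Nrf2 target enzymes at -0.11, -0.098, -0.16 and -0.13. These shifts follow from the scaling itself, which adds 1 constant to each ratio, or from the length trend that was subtracted. Srxn1 reversed to 0.050, 0.062, 0.0049 and 0.026 in that order. With the length trend removed, Mt3 reversed to -0.066 and Gclm to 0.29, and with DESeq2 size factors the median of the zinc and copper genes reversed to 0.0069. Among single genes and lists, 51 alternative values stayed within the counting interval, 68 moved beyond it and 7 reversed. Part of the 51 could not change, since the filters on level leave the ratio of a single gene as it was. No paired analysis was possible because each solution had a single library, and for the same reason no library could be left out. At this depth the intervals of Mt3, Nqo1 and Gclm were the widest of the 9.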
